A study of Mus musculus with 19 samples.

Results

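Mediator is a large multi-subunit complex that carries signals from DNA-bound activators to RNA polymerase II. Its head and middle modules contact the polymerase, the tail module receives most activators, and a separable kinase module joins or leaves the core. In fat cells Mediator is known as the partner through which nuclear receptors such as PPARγ reach the polymerase, in particular through the subunit MED1. The genes described here were chosen by name: every symbol made of Med and a number, with or without a letter, and Cdk8, Cdk19 and Ccnc of the kinase module. The probe set with 1 gene symbol that was brightest over all arrays was used for each gene, which gave 32 Mediator genes of 18820 genes measured. The set was proposed because Med21 was already known to be low in these arrays after fatty acid treatment. Med21 is therefore described without a test, and the results are about the other 31 genes.

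The cells were 3T3-L1, mouse fibroblasts that differentiate into lipid-filled adipocytes when hormones are added. All groups were differentiated with dexamethasone, IBMX and insulin, kept in insulin, deprived of serum from day 7 and treated for 48 h from day 8. Treated cells received 250 µM of palmitic acid (PA, 4 arrays), palmitoleic acid (PMA, titled PMO in the labels, 4 arrays), stearic acid (SA, 4 arrays) or oleic acid (OA, 3 arrays), and control cells (4 arrays) received ethanol and 2% albumin alone, the solvent and carrier that the acids shared. PA and SA are saturated, PMA and OA each have 1 double bond, and the chain of SA and OA is longer than that of PA and PMA. Replicates are biological ones by their titles, and p-values measure only the spread between these arrays. A single immortal line stands for fat cells here, and nothing in the labels gives the share of cells that differentiated. In RNA from whole wells, fewer cells of a type and less RNA per cell cannot be told apart.

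Values are log2 expression as deposited by the authors, and differences are acid minus control on the log2 scale ± SE from 1 linear model over all arrays, with 95% intervals. A gene passed at a Benjamini-Hochberg adjusted p under 0.05 over all 18820 genes in limma. The median of an array was 5.23 to 5.43, and correlations between any 2 arrays across genes were 0.988 to 0.997. The highest array medians were those of PA replicate 2 (5.43) and PMA replicate 1 (5.41), which also had the lowest quality weights in limma (0.292 and 0.441). PA replicates 2 and 4, and PMA replicates 1 and 4, were left out together as alternatives. Among the 31 Mediator genes, PA replicate 2 was the lowest of all 19 arrays in 12, and PMA replicate 1 the highest in 7. The adipocyte markers averaged 11.1 to 11.2 in the arrays of all 4 acids and 11.1 in control arrays (10 of 11 listed genes measured), with control means of 12.23 for Adipoq and 12.4 for Fabp4. Preadipocyte and fibroblast markers, 9 of 10 measured, averaged 9.74 to 9.87 in PA, 9.95 to 10 in PMA, 9.85 to 9.9 in SA, 9.95 to 9.99 in OA and 9.75 to 9.84 in control arrays. Of these markers Sfrp2 rose by 0.5 ± 0.1 in PMA (adjusted p 0.0444) and by 0.63 ± 0.11 in OA (adjusted p 0.00898), and Col1a1 rose in PMA by 0.26 ± 0.05 (adjusted p 0.0463). Macrophage and leukocyte markers lay between 4.64 and 4.92 in the acids and between 4.65 and 4.76 in control arrays, and endothelial markers between 4.39 and 4.65 in the acids and between 4.4 and 4.52 in control arrays. The part of these markers in the Mediator values was not tested.

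Among Mediator genes, Med21 had the lowest difference for the mean of the 4 acids against control. Med10 was the one Mediator call, and Med13l had the largest positive difference with OA. The promoters of these 3 genes are shown. Each is the strand of the gene from 250 bases before to 50 bases after an annotated start, from RefSeq on GRCm38.p6. For Med21 this is the start of the gene's span. The windows shown for Med10 and Med13l lie wholly within the span of the gene, downstream of its first base. Capitals mark matches, on either strand, to GGGCGG (the GC box bound by Sp1-type factors), CCGGAAG (an ETS core), CCAAT (the site of NF-Y), TATAAA (the TATA box), ATGGCG (a YY1 core), GCGCATGC (an NRF1 core) and CACGTG (an E-box). Med21 at chr6:146642329-146642628, Med10 at chr13:69809632-69809931 and Med13l at chr5:118560469-118560768 all lie on the plus strand.
Med21: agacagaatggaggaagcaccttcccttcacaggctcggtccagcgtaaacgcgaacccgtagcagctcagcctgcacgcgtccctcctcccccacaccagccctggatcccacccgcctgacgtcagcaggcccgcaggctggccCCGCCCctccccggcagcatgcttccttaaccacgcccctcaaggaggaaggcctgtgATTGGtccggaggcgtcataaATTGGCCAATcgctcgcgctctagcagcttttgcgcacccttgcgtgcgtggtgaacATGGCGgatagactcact
Med10: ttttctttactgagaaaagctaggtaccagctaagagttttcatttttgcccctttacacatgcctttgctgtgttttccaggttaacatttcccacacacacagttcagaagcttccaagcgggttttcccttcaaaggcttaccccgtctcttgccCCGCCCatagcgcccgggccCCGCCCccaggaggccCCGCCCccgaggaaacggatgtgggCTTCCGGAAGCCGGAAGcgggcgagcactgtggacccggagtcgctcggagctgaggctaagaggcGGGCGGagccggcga
Med13l: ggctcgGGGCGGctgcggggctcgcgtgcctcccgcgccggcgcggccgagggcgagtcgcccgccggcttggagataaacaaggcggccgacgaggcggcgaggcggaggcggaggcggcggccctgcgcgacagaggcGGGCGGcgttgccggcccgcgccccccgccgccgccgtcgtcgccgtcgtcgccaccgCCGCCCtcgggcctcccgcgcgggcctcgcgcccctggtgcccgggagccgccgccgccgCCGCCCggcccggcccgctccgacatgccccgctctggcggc
The Med21 window was 63.3% G and C and held a GC box and CCAAT at 3 places. Of these places a pair shares no bases but abuts on opposite strands. The window also held ATGGCG 32 bases into the transcript, on the strand of the gene. This match begins with ATG, and whether it lies in the coding sequence was not examined. The Med10 window was 59% G and C and held the GC box at 4 places and CCGGAAG at 3, of which 2 on opposite strands overlap. The Med13l window was 84.7% G and C and held 4 GC boxes and none of the other motifs searched. Over the Mediator genes, 31 windows of 27 genes were in the promoter table. GGGCGG was found in 20 of the 31 windows (64.5%), against 35.7% of all 32851 windows of the same length. CCGGAAG was found in 8 Mediator windows (25.8%, against 8.86% of all), ATGGCG in 7 (22.6%, against 8.93%) and GCGCATGC in 4 (12.9%, against 2.71%). CCAAT was in 11 (35.5%, against 37.4%), TATAAA in 3 (9.68%, against 13.6%) and CACGTG in 4 (12.9%, against 7.15%). These are counts of windows, and a gene with 2 windows can enter with both. Both windows of Med15 held CCGGAAG and GCGCATGC, and both of Med7 held GGGCGG and CCAAT. The 32851 windows were not limited to genes measured here. No motif searched was found in the window of Med11, the head gene with the lowest differences in PMA and OA. None was found in a further annotated window of Med10, the one that holds the first base of its span.

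Med21 encodes a small middle-module subunit that pairs with MED7 in the flexible hinge of the complex, as known from yeast. Its probe set (10542750) gave 8.89, 8.68, 8.92 and 8.77 with PA, 8.6, 8.51, 8.62 and 8.67 with PMA, 8.59, 8.66, 8.66 and 8.71 with SA and 8.64, 8.61 and 8.39 with OA, against 8.99, 8.99, 9.06 and 8.96 in control arrays. All 15 acid arrays lay below all 4 control arrays, and the PA arrays lay nearest to them. The difference from control was -0.18 ± 0.06 with PA (interval -0.31 to -0.05), -0.4 ± 0.06 with PMA (-0.53 to -0.27), -0.34 ± 0.06 with SA (-0.47 to -0.21) and -0.45 ± 0.07 with OA (-0.59 to -0.31). In order of level, OA and PMA were lowest, then SA, then PA, then control. The PMA, SA and OA arrays overlapped each other, and PA overlapped SA but not PMA or OA. PMA minus OA was 0.06 ± 0.07, SA minus OA 0.11 ± 0.07, PA minus SA 0.16 ± 0.06 and PA minus PMA 0.21 ± 0.06, given as descriptions. The PA value depended on PA replicates 2 and 4, the lowest PA arrays for this gene, and was -0.09 without them.

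**Figure D1:**
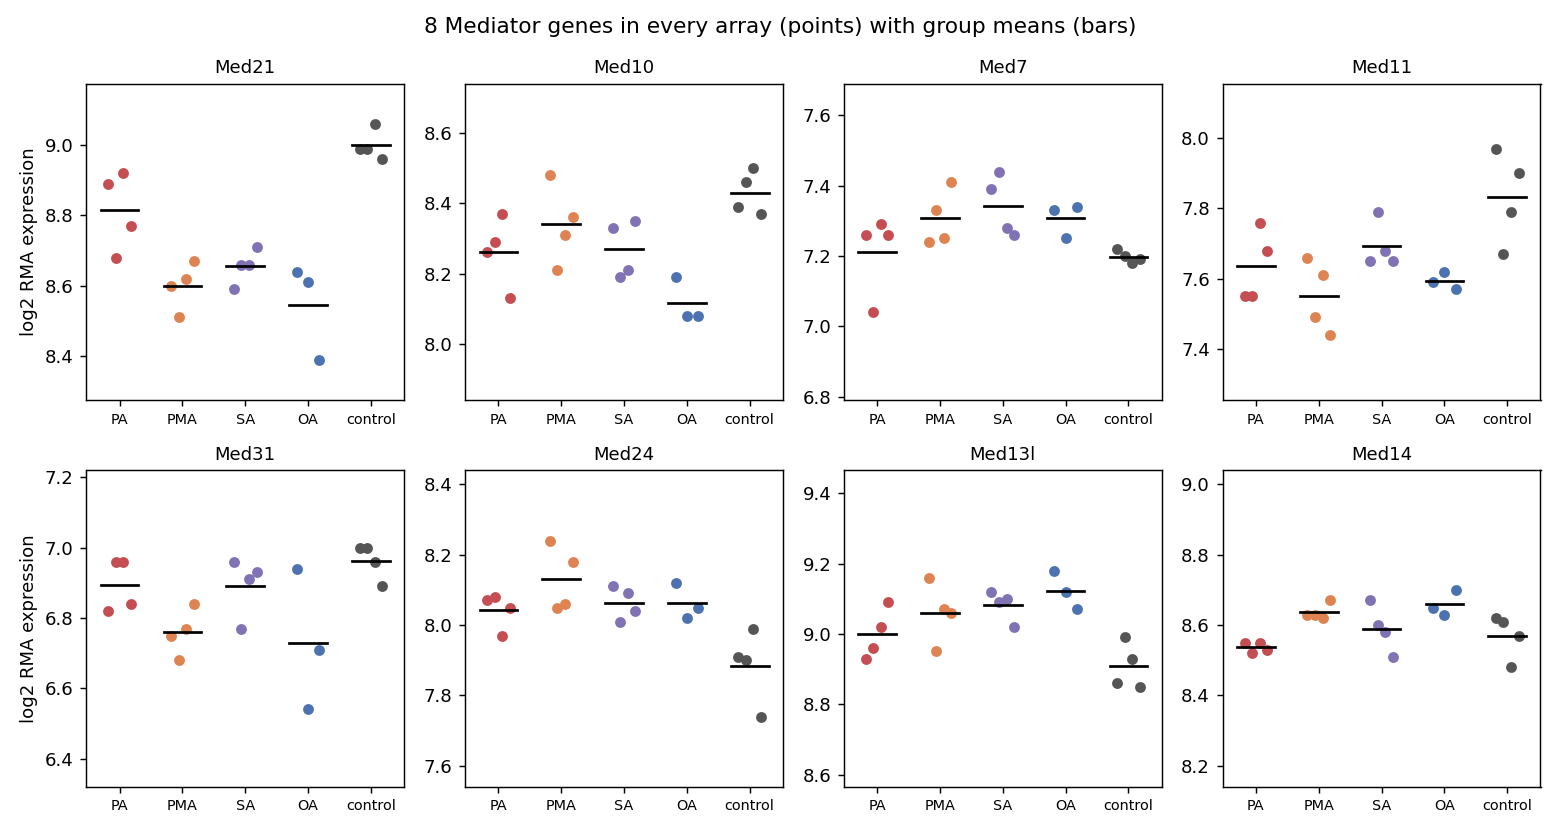
Log2 expression of Med21 and other Mediator genes in each array, by group, with PA, PMA, SA and OA to the left of control. Points are arrays and bars are group means. All acid arrays lie below the control arrays for Med21, and the OA arrays lie below the control arrays for Med10.

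Among the other 31 genes, none had a lower value than Med21 with PMA, SA or OA, and 3 did with PA. The lowest of the 31 was Med4 with PA (-0.23) and SA (-0.17), Med11 with PMA (-0.28) and Med10 with OA (-0.31). Of all genes tested, 524 had a lower difference than Med21 with PA, 11 with PMA, 29 with SA and 19 with OA. The median of the 31 was -0.07 with PA, 0.05 with PMA, -0.02 with SA and 0 with OA, against 0.03, 0.06, 0.02 and 0.02 over all genes tested. With PA 23 of the 31 were lower than in control (38.3% of all genes were), with PMA 11 (21.5%), with SA 16 (41.9%) and with OA 15 (43.3%). The PMA and OA majorities turned under cyclic loess normalisation. It put 17 of the 31 lower with PMA (median 0) and 17 with OA (median -0.02). With PA it put 20 lower (median -0.08) and with SA 19 (median -0.03). Of the 18820 genes it put 8423 lower with PMA in place of 4047, and 8992 with PA in place of 7202. With SA 8841 genes were lower in place of 7889, and with OA 8673 in place of 8143. The PA median was -0.02 without PA replicate 2 and -0.01 without PA replicates 2 and 4, and the PMA median was 0.01 without PMA replicates 1 and 4.

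Of the middle-module genes, Med10 fell with OA and alone among the 31 Mediator genes passed in any of the 10 comparisons. Med21 was not tested. Med10 encodes a core middle subunit. Its values were 8.19, 8.08 and 8.08 with OA, against 8.39, 8.46, 8.5 and 8.37 in control arrays, so that the OA arrays lay wholly below control. The difference was -0.31 ± 0.07 (interval -0.45 to -0.17, adjusted p 0.0347 in limma). In limma fits with 1 array left out, the call held in 12 of 19. It was lost without OA replicate 1, 2 or 3 (adjusted p 0.0615, 0.122 and 0.159) and without control replicate 1, 2, 3 or 4 (adjusted p 0.07, 0.0677, 0.0977 and 0.0637), and over all probe sets without collapsing to genes (0.0553), with adjusted p from 0.00194 to 0.159 over all alternatives. With the other acids Med10 had 8.26, 8.29, 8.37 and 8.13 in PA, 8.48, 8.21, 8.31 and 8.36 in PMA and 8.33, 8.19, 8.21 and 8.35 in SA arrays. The SA arrays lay wholly below control, while PA replicate 3 and PMA replicate 1 reached the control range. The differences were -0.16 ± 0.06 with PA, -0.09 ± 0.06 with PMA and -0.16 ± 0.06 with SA (adjusted p 0.254, 0.51 and 0.439).

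Med7, the partner of Med21 in the hinge, was not lower. It had 7.26, 7.04, 7.29 and 7.26 in PA, 7.24, 7.33, 7.25 and 7.41 in PMA, 7.39, 7.44, 7.28 and 7.26 in SA and 7.33, 7.25 and 7.34 in OA arrays, against 7.22, 7.2, 7.18 and 7.19 in control arrays. The PMA, SA and OA arrays all lay above control, and PA was split by replicate 2, which was lower than every other array. The differences of 0.02 with PA, 0.11 with PMA, 0.15 with SA and 0.11 with OA did not pass (smallest adjusted p 0.349). Med4, a core middle subunit, had 6.97, 6.69, 6.93 and 7.01 with PA, 7.02, 6.98, 6.94 and 7.09 with PMA, 7.07, 7, 6.83 and 6.95 with SA and 7.04, 7 and 6.86 with OA, against 7.1, 7.13, 7.19 and 7.1 in control arrays. Every acid array lay below every control array, as for Med21, yet the differences of -0.23 ± 0.07 with PA, -0.12 ± 0.07 with PMA, -0.17 ± 0.07 with SA and -0.16 ± 0.07 with OA did not pass (adjusted p 0.219, 0.369, 0.438 and 0.374). A dimmer probe set of Med4 (10603706) differed by -0.25 ± 0.18 with PA, -0.05 ± 0.18 with PMA, -0.11 ± 0.18 with SA and -0.02 ± 0.2 with OA.

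Med31, which in yeast sits at the end of the middle module next to MED7, had 6.75, 6.68, 6.77 and 6.84 with PMA and 6.94, 6.54 and 6.71 with OA, against 7, 7, 6.96 and 6.89 in control arrays. The PMA arrays lay below control, and OA replicate 1 reached it. The differences were -0.2 ± 0.07 with PMA and -0.23 ± 0.08 with OA (adjusted p 0.173 and 0.181), and -0.07 with both PA and SA. A probe set shared by Med31 and 4930563E22Rik differed by 0.17 with PA, 0.12 with PMA, 0.07 with SA and 0 with OA. Med1, the nuclear receptor contact, differed by -0.07 ± 0.05 with PA, 0.11 ± 0.05 with PMA, 0.04 ± 0.05 with SA and 0.06 ± 0.06 with OA (smallest adjusted p 0.293). Med9, and Med26, which recruits elongation factors, lay between -0.01 and 0.09 in all 4 acids. Of the 7 middle-module genes other than Med21, 4 were lower with PA, 3 with PMA, 3 with SA and 4 with OA. Under cyclic loess 4, 4, 4 and 5 were lower. Of all genes, before cyclic loess, 38.3%, 21.5%, 41.9% and 43.3% were lower in the same order. Med19 was measured only on a probe set shared with Zdhhc5, which differed by -0.05 with PA, 0.03 with PMA, 0 with SA and 0.05 with OA.

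In the head module, which in yeast binds the polymerase directly, no gene passed, and 6 of 7 were lower than in control with PA, 4 with PMA, 6 with SA and 6 with OA. The medians were -0.1, -0.04, -0.12 and -0.11, and under cyclic loess 6, 5, 6 and 6 were lower. Of all genes, before cyclic loess, 38.3% were lower with PA, 21.5% with PMA, 41.9% with SA and 43.3% with OA. Med11 had 7.55, 7.55, 7.76 and 7.68 with PA, 7.66, 7.49, 7.61 and 7.44 with PMA, 7.65, 7.79, 7.68 and 7.65 with SA and 7.59, 7.62 and 7.57 with OA, against 7.97, 7.67, 7.79 and 7.9 in control arrays. The PMA and OA arrays lay wholly below control, whose own arrays were widely spread. Its difference was -0.2 ± 0.07 with PA, -0.28 ± 0.07 with PMA, -0.14 ± 0.07 with SA and -0.24 ± 0.07 with OA (adjusted p 0.23, 0.0681, 0.579 and 0.144). Med8, which joins other head subunits in yeast, lay at -0.16 ± 0.06 with PA, -0.08 ± 0.06 with PMA, -0.12 ± 0.06 with SA and -0.13 ± 0.07 with OA, with its SA and OA arrays wholly below control. Med6 lay between -0.15 and -0.06 in the 4 acids. Med17, the central subunit of the head, was at -0.13 ± 0.06 with PA and between 0.03 and 0.05 with the other acids. Med22 differed by -0.15 ± 0.06 with SA and 0.08 ± 0.06 with PMA, Med18 by -0.12 ± 0.07 and 0.08 ± 0.07, and Med20 stayed between -0.04 and 0.06 in all 4 acids.

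The subunits placed between head and tail, Med27, Med28, Med29 and Med30, all had lower means with PA, SA and OA than in control. With PMA 3 of 4 did, or all 4 under cyclic loess. None passed. Of all genes, before cyclic loess, 38.3% were lower with PA, 41.9% with SA, 43.3% with OA and 21.5% with PMA. Med27 had 8.02, 7.85, 7.97 and 7.95 with PA and 8.09, 8.02, 7.83 and 8.02 with SA, against 8.23, 8.14, 8.1 and 8.15 in control arrays. Both acids lay wholly below control, by -0.21 ± 0.07 with PA and -0.17 ± 0.07 with SA (adjusted p 0.228 and 0.468), beside 0.01 ± 0.07 with PMA and -0.16 ± 0.08 with OA. Med30 lay between -0.15 and -0.1 in the 4 acids, Med28 between -0.12 and 0, and Med29 between -0.15 with OA and -0.02 with PMA. The adjusted p of these 3 was 0.349 or higher.

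Med14, the scaffold that links head, middle and tail, differed by -0.03 ± 0.05 with PA, 0.07 ± 0.05 with PMA, 0.02 ± 0.05 with SA and 0.09 ± 0.05 with OA, and did not pass (smallest adjusted p 0.495). Its interval with OA ran from -0.02 to 0.2. In the tail, 5 of 5 genes had higher means than control with PMA and with OA, 3 with SA and 2 with PA, and none passed. Cyclic loess left all 5 higher with PMA and 4 with OA, and only 1 with SA. Of all 18820 genes 14773 were higher with PMA, 10677 with OA, 10931 with SA and 11618 with PA. Under cyclic loess these were 10397, 10147, 9979 and 9828. Med24, a tail subunit that carries nuclear receptor and other activator signals, had 8.07, 8.08, 7.97 and 8.05 with PA, 8.24, 8.05, 8.06 and 8.18 with PMA, 8.11, 8.01, 8.09 and 8.04 with SA and 8.12, 8.02 and 8.05 with OA, against 7.91, 7.9, 7.99 and 7.74 in control arrays. All PMA, SA and OA arrays lay above control, and PA replicate 3 fell within its range. The differences were 0.16 ± 0.06 with PA, 0.25 ± 0.06 with PMA, 0.17 ± 0.06 with SA and 0.18 ± 0.06 with OA (adjusted p 0.244, 0.0654, 0.315 and 0.224). Med16 had 0.18 ± 0.07 with PMA (adjusted p 0.232) and 0.01 to 0.07 with the other acids.

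The kinase module, in which CDK8 or CDK19 with cyclin C phosphorylates transcription factors and MED12 and MED13 tie the kinase to the core, held 7 measured genes and none that passed. Med13l, a paralogue of Med13, had 8.93, 8.96, 9.02 and 9.09 with PA, 9.16, 8.95, 9.07 and 9.06 with PMA, 9.12, 9.09, 9.1 and 9.02 with SA and 9.18, 9.12 and 9.07 with OA, against 8.86, 8.99, 8.93 and 8.85 in control arrays. The SA and OA arrays all lay above control, while PA and PMA overlapped it. The differences were 0.09 ± 0.05 with PA, 0.15 ± 0.05 with PMA, 0.18 ± 0.05 with SA and 0.22 ± 0.06 with OA (adjusted p 0.392, 0.183, 0.256 and 0.0867). Med12 lay wholly above control with PMA, SA and OA, at 0.13 ± 0.06, 0.1 ± 0.06 and 0.13 ± 0.07, and at -0.01 ± 0.06 with PA. Cdk8 differed by -0.07 ± 0.07 with PA, 0.04 ± 0.07 with PMA, 0.05 ± 0.07 with SA and 0.12 ± 0.08 with OA. Its paralogue Cdk19 differed by -0.09 ± 0.06, 0.05 ± 0.06, 0.04 ± 0.06 and 0.1 ± 0.06 in the same order. Ccnc, which encodes cyclin C, differed by -0.15 ± 0.1 with PA, where replicate 2 stood at 7.19 and the other arrays at 7.7 to 7.88, and by -0.01 to 0.06 with the other acids. Med13 lay between -0.02 and 0.06. Med12l, a paralogue of Med12, lay below the array's median in 19 of 19 arrays and differed by 0.13 ± 0.08 with PA and -0.09 ± 0.08 with SA. Of the 7 genes 2 had higher means than control with PA and 6 with each of the other acids. Under cyclic loess the number was 4 with PA, 3 with PMA, 6 with SA and 6 with OA. Of all 18820 genes 11618 were higher with PA, 14773 with PMA, 10931 with SA and 10677 with OA. Under cyclic loess these were 9828, 10397, 9979 and 10147.

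**Figure D2:**
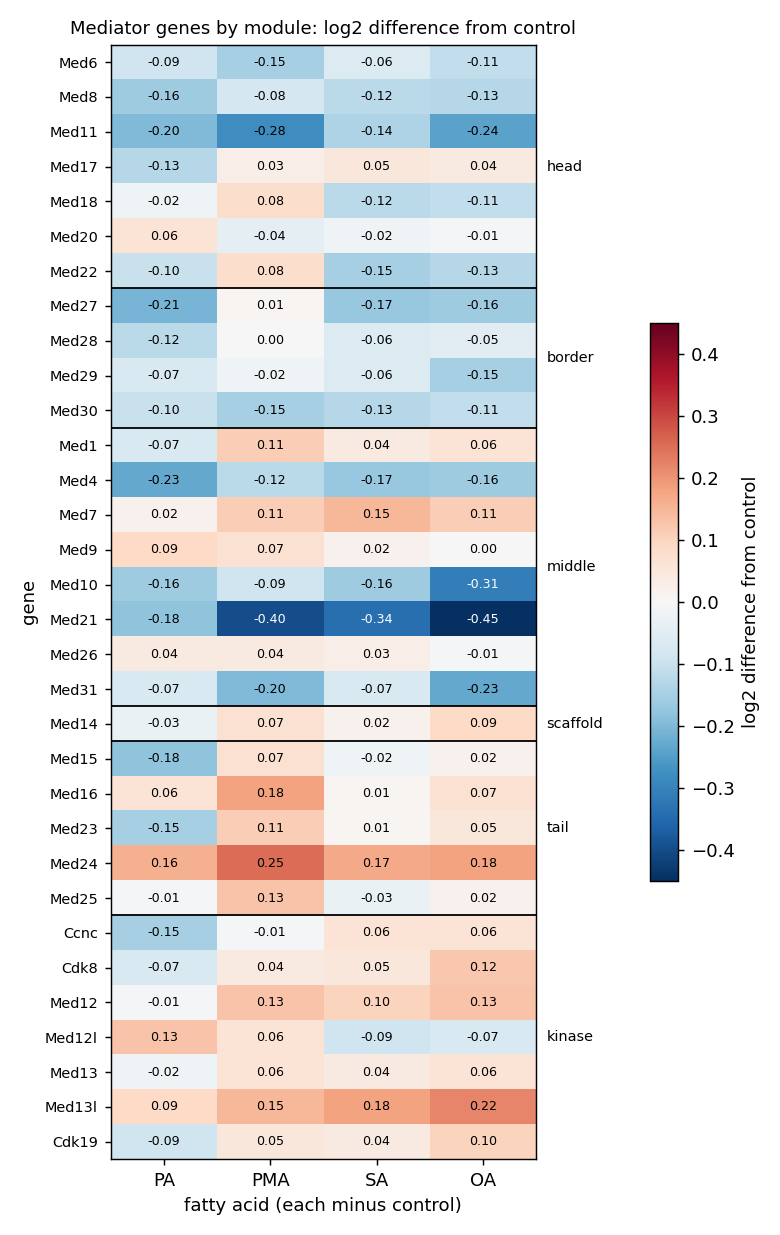
Log2 differences from control of the 32 Mediator genes (rows, grouped by module) for PA, PMA, SA and OA (columns), with the value in each cell. The colours are a scale of the difference; Med21 is the lowest row for PMA, SA and OA.

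Read against all genes, the share of Mediator genes that passed was 0 of 31 with PA (0% of all genes passed), 0 with PMA (0.266% of all genes), 0 with SA (0.165%) and 1 with OA (0.861%). For the mean of the 4 acids it was 0, against 0.197% of all genes. The share with PA rests on PA replicate 1: without that array 510 of the 18820 genes passed in limma and still 0 of the 31. At an unadjusted p under 0.05 in limma, 1 Mediator gene was higher and 8 were lower with PA (15.4% of all genes were under it), 5 higher and 2 lower with PMA (16%), 3 higher and 5 lower with SA (8.53%), 2 higher and 6 lower with OA (11.6%) and 2 higher and 6 lower for the mean of the acids (12.7%). Arrays that lay wholly below control were found for 3 Mediator genes with PA (1.65% of all genes), 3 with PMA (1.3%), 5 with SA (2.5%) and 5 with OA (4.63%). Arrays that lay wholly above control were found for 0 genes with PA (3.9%), 4 with PMA (9.29%), 4 with SA (4.88%) and 6 with OA (9.72%). The genes below were Med4 with all 4 acids, Med10 and Med8 with SA and OA, Med27 with PA and SA, Med11 with PMA and OA, and Med23, Med31, Med22 and Med6 with 1 acid each. The genes above were Med12, Med24 and Med7 with PMA, SA and OA, Med13l with SA and OA, Med25 with PMA, and Cdk19 and Med14 with OA. All these comparisons share the 4 control arrays. With PMA no Mediator gene passed over all arrays, but some did in other fits. Med11 passed without control replicate 2, and Med11 and Med24 without PA replicate 2. Over all 29 alternatives, changes of processing among them, Med11 passed with PMA in 6 and Med24 in 3.

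**Figure D3:**
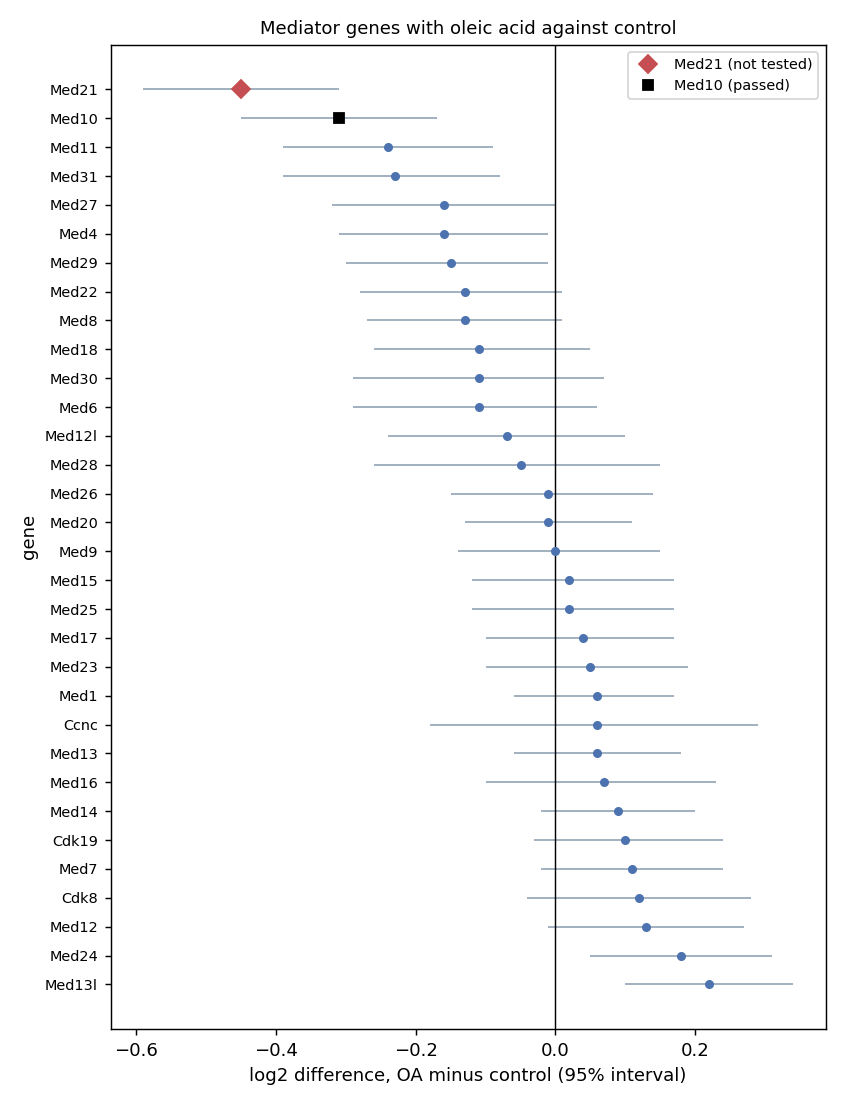
Log2 difference between OA (n = 3) and control (n = 4) of each Mediator gene, with 95% intervals, sorted by size. Med10 is the one gene that passed, at -0.31, Med21 at -0.45 was not tested, and the genes run down to Med13l at 0.22.

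Acids that differ by the double bond were compared at the same dose and time. For the mean of the saturated acids against the mean of the monounsaturated acids, 0 of 31 Mediator genes passed (0.553% of all genes), with 1 higher and 7 lower at an unadjusted p under 0.05 in limma (12.6% of all genes). In the same contrast 9 of 9 preadipocyte and fibroblast markers were lower (59% of all genes were), and 8 under cyclic loess. Of these markers Sfrp2 (-0.54 ± 0.07, adjusted p 0.000488) and Postn (-0.18 ± 0.04, adjusted p 0.034) passed. The part of the markers in the Mediator values was not tested. The tail subunit Med23 had the largest negative difference. It had 7.96, 7.86, 7.99 and 7.87 with PA and 8.22, 8.07, 8.14 and 7.89 with SA, against 8.22, 8.09, 8.2 and 8.21 with PMA and 8.04, 8.14 and 8.16 with OA. PA lay wholly below PMA, whereas SA and OA overlapped, and the difference between the means was -0.15 ± 0.05 (interval -0.24 to -0.05, adjusted p 0.197). Med15, a tail subunit that binds SREBP activators, followed at -0.14 ± 0.05 and Med27 at -0.11 ± 0.05 (adjusted p 0.22 and 0.368). At the other end stood Med31 at 0.15 ± 0.05, Med11 at 0.09 ± 0.05 and Med6 at 0.05 ± 0.06 (adjusted p 0.235, 0.454 and 0.72). Med21 itself was 0.16 ± 0.05 higher with the saturated acids, and no other Mediator gene had a larger value in this contrast.

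Between PA and PMA, 0 of 31 passed (0.962% of all genes) and 0 were higher and 10 lower at the unadjusted threshold (17.7%). Here 9 of 9 preadipocyte and fibroblast markers were lower (61.2% of all genes were), and 9 under cyclic loess. Of these markers Sfrp2 (-0.66 ± 0.1, adjusted p 0.00154) and Postn (-0.24 ± 0.05, adjusted p 0.0331) passed. Among the Mediator genes the smallest adjusted p were those of Med23 (-0.26 ± 0.06, interval -0.39 to -0.13, adjusted p 0.0519), Med15 (-0.25 ± 0.06, 0.0598) and Med1 (-0.18 ± 0.05, 0.0842). Single arrays decided these: Med23 passed without PA replicate 1 or 3, PMA replicate 2 or SA replicate 1 or 4, Med15 without PA replicate 1 or 3, and Med1 and Med17 without PA replicate 3. Between SA and OA, 0 passed (0.0319% of all genes), with 2 higher and 0 lower at the unadjusted threshold (2.4%), which were Med10 (0.15 ± 0.07, interval 0.01 to 0.3) and Med31 (0.16 ± 0.08, 0.01 to 0.32). Between PA and SA, 0 passed (0.143%), with 1 higher and 6 lower (15.8%). Without PA replicate 1, 499 genes passed between PA and SA in place of 27, and still 0 of the 31. The higher gene was Med12l (0.22 ± 0.08, interval 0.06 to 0.38), and the smallest adjusted p was that of Med17 (-0.18 ± 0.06, -0.3 to -0.06, adjusted p 0.19). Between PMA and OA 0 passed (0.0531%), with 4 higher and 0 lower (8.61%), namely Med10 (0.23 ± 0.07, interval 0.08 to 0.37), Med22 (0.21 ± 0.07), Med18 (0.18 ± 0.07) and Med27 (0.17 ± 0.08). No Mediator gene passed the test of whether the double bond acted differently at the shorter and the longer chain (smallest adjusted p 0.929). A difference that did not pass does not show that the acids act alike.

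The machinery around Mediator was measured in lists of other genes. None of 13 RNA polymerase II subunits passed with any acid, with medians of -0.03 with PA, 0.02 with PMA, -0.04 with SA and -0.11 with OA (smallest adjusted p 0.0633, at an unadjusted p under 0.05 in 6 with OA, where 11.6% of all genes were). The PMA median turned to -0.04 under cyclic loess. Of 31 general transcription factors measured among 34, Gtf2h1, a core subunit of the repair and initiation factor TFIIH, rose by 0.32 ± 0.07 with SA (adjusted p 0.0491) and by 0.32 ± 0.07 with OA (adjusted p 0.0348). Gtf2h5, the smallest TFIIH subunit, fell with OA by 0.27 ± 0.06 (adjusted p 0.0411). With 1 array left out, the SA call of Gtf2h1 held in 3 of 19 fits (without PA replicate 1 or 2 or OA replicate 2). Its OA call held in 12 and was lost without any 1 of the control or OA arrays. The Gtf2h5 call held in 6 of 19 and was likewise lost without any control or OA array, and without PA replicate 4, PMA replicate 3 or 4 or SA replicate 1, 2 or 3. No pausing or elongation factor passed among 27 measured of 28, with medians of 0.01 with PA, 0.09 with PMA, 0.07 with SA and 0.07 with OA. Among 15 of 19 cohesin and coactivator genes, Rad21, a ring subunit of the cohesin complex, rose with OA by 0.23 ± 0.05 (adjusted p 0.0313). That call held in 13 of 19 fits and was lost without control replicate 1, 3 or 4 or any OA array, and no other gene of the list passed with any acid. None of 21 measured among 24 activators reported to bind Mediator passed against control, while Elk4, an ETS factor, differed by -0.23 ± 0.06 between PA and PMA (adjusted p 0.0484). The Elk4 call held in 3 of 19 fits, those without PA replicate 1 or 3 or OA replicate 2. It was also lost under cyclic loess (-0.16), and over all alternatives its adjusted p ran from 0.0237 to 0.43. The unadjusted count with OA was not particular to the polymerase subunits. At an unadjusted p under 0.05 in limma were also 10 of 27 pausing and elongation factors and 6 of 15 cohesin and coactivator genes. So were 6 of 21 activators and 6 of 31 general transcription factors. The directions with OA differed between the lists. Lower than in control were 10 of the 13 polymerase subunits (43.3% of all genes were). Higher were 23 of the 27 pausing and elongation factors, 14 of the 15 cohesin and coactivator genes and 19 of the 21 activators. Of the 31 general transcription factors 15 were higher.

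Mediator genes differ widely in length, and the OA values were set beside the span of each gene on GRCm38.p6, a comparison chosen after the values had been seen. All 31 genes and 18790 of the 18820 had a span. Across the 31 genes, span on a log scale correlated with the OA difference at 0.51 (Spearman 0.53), against 0.22 across all 18790. With PMA the correlation was 0.44 and with SA 0.36, against 0.14 and 0.19, and with PA 0.23 against -0.08. The genes of a correlation share arrays and are not independent. Of the 15 shorter genes (1.82 to 18 kb), 11 were lower with OA than in control, with a median of -0.11, and of the 16 longer genes (19.6 to 313 kb) 12 were higher, with a median of 0.06. The part of gene length in the pattern by module was not tested.

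**Figure D4:**
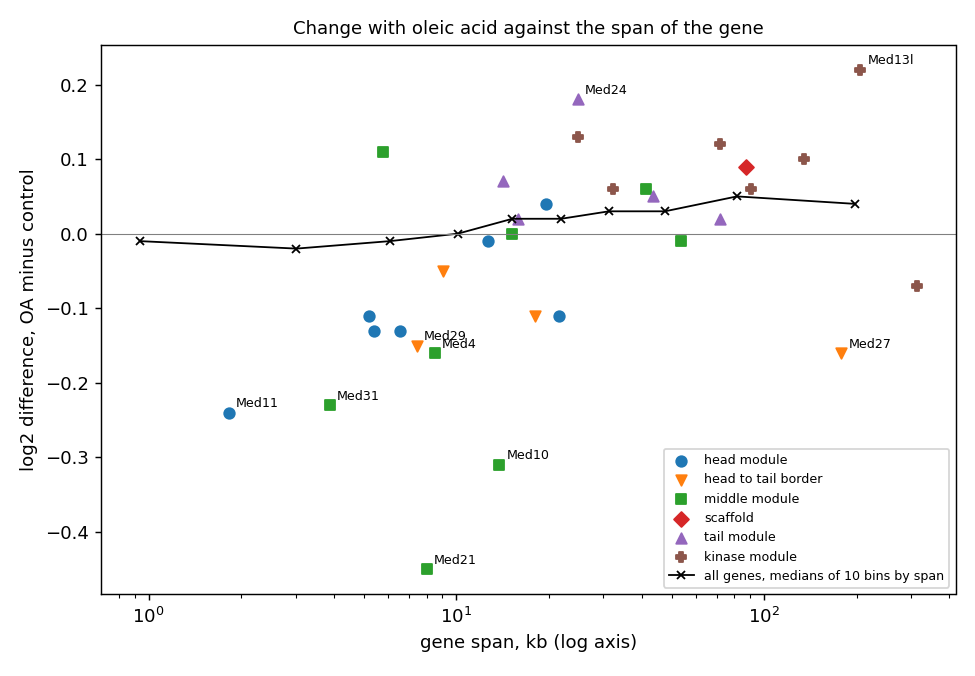
Log2 difference between OA and control of each Mediator gene (vertical axis) against the span of the gene in kb on a log axis, coloured by module. The shorter genes, Med11 and Med10 among them, lie mostly below 0 and the longer genes, Med13l among them, mostly above; the black line joins the medians of all genes in bins of equal number by span.

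The genes whose values over the 19 arrays were most like those of Med21 were Sat1 (Pearson r 0.9), H3f3a (0.89), Acyp2 (0.88), Tbca (0.88) and Cnih4 (0.87), and those least like it were Col6a1 (-0.89), Pcx (-0.87), Plpp3 (-0.85), Ehd2 (-0.85) and Plin1 (-0.85). Without control replicates 3 and 2, the arrays farthest from the median of Med21, these lay between 0.85 and 0.88 and between -0.84 and -0.81. Within groups, after removing group means, r was 0.23 to 0.74 for the first set and -0.5 to -0.19 for the second. Among the 31 Mediator genes r with Med21 had a median of -0.05 and was positive in 15, against a median of -0.08 over all other genes. Spearman's rho was 0.85 to 0.88 for the genes most like it and -0.87 to -0.81 for those least like it. Among Mediator genes r was highest for Med11 (0.63), Med10 (0.61) and Med31 (0.61) and lowest for Med13l (-0.65), Med24 (-0.62) and Med14 (-0.58), while Med7 had -0.45. Within groups r was 0.15 for Med11, 0.39 for Med10 and 0.13 for Med31. It was 0.24 for Med13l, 0.11 for Med24, -0.29 for Med14 and 0.25 for Med7. The highest within groups were Med17 (0.77), Med8 (0.68) and Med4 (0.54). PA replicate 2 was the lowest PA array for Med21 (8.68) and for Med17 (6.93), Med8 (7.08) and Med4 (6.69). The r within groups was not computed without that array. The median within groups was 0.17 over the 31 genes, against 0.08 over all other genes. These correlations are over arrays that fall into treatment groups and are given as a description.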

How the data were processed

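Total RNA of differentiated 3T3-L1 cells (100 ng per array, per the labels) was hybridised to Affymetrix Mouse Gene arrays, 4 per group for PA, PMA, SA and control and 3 for OA, for which the amplification of 1 sample failed, per the labels. The values deposited by the authors are log2 expression per probe set, made with RMA in R 2.15.0 with affy 1.34.0 per the submitters' processing notes. Scan files were not analysed here, and the authors' background correction, normalisation and summary stand as deposited. The deposited table held 35556 probe sets with values from 1.97 to 13.3. The annotation gave 1 symbol to 21218 of them and several to 1881, and 12457 were unnamed. For each of 18820 symbols the brightest probe set, by its mean of 19 arrays, was kept, with no filter on low values. All 32 Mediator genes were found by gene identifier in the RefSeq table of GRCm38.p6, which lists 34 symbols that fit the naming rule. Of the other 2, Med19 shared its probe set with another gene and Med9os was not measured. The genome build behind the probe sets is not given in the sources used here, so coordinates are printed only for the promoter windows, from RefSeq's own build.

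Group means were estimated over the 19 arrays in limma 3.58.1 (R 4.3.3), by lmFit with plain eBayes moderation. P-values were two-sided, with Benjamini-Hochberg adjustment over all genes in each comparison and a threshold of 0.05. Control was set against every acid and against their mean, saturated acids were set against monounsaturated ones, and acids were set against each other in pairs. The number of arrays limits the precision. Simulated data with known changes were used to test the procedure. The Mediator genes, modules and gene lists were chosen with earlier results of these data known. Named were Med21, any Mediator gene that passed, the 3 largest positive and 3 largest negative differences of each acid and of the saturated against the monounsaturated acids, Med7, Med10, Med14, Med1, the kinase module, members of other lists that passed, and the 5 genes most and least like Med21. Other genes are given to complete the modules.

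Alternatives were cyclic loess normalisation, array quality weights, a trended robust spread, removal of the dimmest 1 in 3 genes, all probe sets in place of genes, averaged probe sets, a replicate block, fits of the compared groups alone, removal of PA replicates 2 and 4 or PMA replicates 1 and 4, and removal of each array in turn. With no batch or date in the labels, within-batch values were not possible.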

Additional observations from a re-analysis of the deposited data

Results flagged for a closer look

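In 6 of 128 groups of 4 arrays (31 Mediator genes and Med21 in PA, PMA, SA and control), 1 array lay farther from the others than Dixon's 95% limit, which is 4.69%, where chance alone gives about 1 in 20. Med16 had 8.24 in control replicate 4, against 8.41 to 8.43 in the other control arrays. Med26 had 6.6 in the same array, against 6.77 to 6.79. The Med16 difference with PMA (0.18) is taken against a control mean that includes this low array. Its PMA arrays were spread as well, at 8.74 and 8.64 in replicates 1 and 4 and 8.41 and 8.47 in replicates 2 and 3. Over all alternatives this difference ran from 0.06 to 0.24. Med23 had 8.09 in PMA replicate 2, against 8.2 to 8.22 in the other PMA arrays, and without that array Med23 passed between PA and PMA. Med30 had 7.75 in SA replicate 3, against 7.69 in the other 3 SA arrays. Med7 had 7.04 in PA replicate 2, against 7.26 to 7.29 in the other PA arrays, which lie above the control arrays. Med9 had 7.46 in PA replicate 1, against 7.6 to 7.62 in the other PA arrays.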

How the results depend on the processing

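None of the largest positive and negative differences of each acid, nor the calls in the transcription lists, changed sign under any alternative run. Among Mediator genes other than Med21, the count that passed with OA (1) was 5 with array quality weights (Med10, Med11, Med13l, Med31, Med4), 2 with a trended robust spread (Med10, Med13l), 0 over every probe set, and 0 to 1 with each array left out. The replicate numbers did not pair the samples: 36 pairs of arrays with the same number in different groups had correlations of -0.43 to 0.4, 6 of them over 0.1, with a mean of -0.02 against 0.01 for different numbers. With the number as a block, the OA count was 0 (Med10 adjusted p 0.0574), the calls of Gtf2h1, Gtf2h5, Rad21 and Elk4 were lost, and no other count of Mediator genes changed. The calls of Gtf2h1, Gtf2h5 and Elk4 were also lost over every probe set, those of Gtf2h5, Rad21 and Elk4 with only the arrays compared, those of Gtf2h1 with SA, Gtf2h5 and Elk4 without PMA replicates 1 and 4, and that of Elk4 with cyclic loess, array weights or without PA replicates 2 and 4. The PMA count (0) was 1 with cyclic loess, 1 with array weights, 2 with the trended robust spread, 2 without the dimmest genes, and 0 to 2 with each array left out. The SA count (0) was 1 with array weights (Med13l). The count for the mean of the acids (0) was 5 with array weights, 2 with cyclic loess, 3 with the trended robust spread, 1 without the dimmest genes, and 0 to 1 with each array left out. The count between PA and PMA (0) was 3 with the trended robust spread, 3 without the dimmest genes, and 0 to 4 with each array left out. The Med21 difference with PA was -0.09 without PA replicates 2 and 4, and ran from -0.22 to -0.14 with each array left out. The median of the other genes with PA was -0.01 without those 2 arrays and ran from -0.09 to -0.02, and with PMA it was 0 under cyclic loess, 0.01 without PMA replicates 1 and 4, and ran from 0.02 to 0.07. The causes were not tested. Signals near the array median, as for Med12l, limit what can be seen of a gene.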
